A study of Mus musculus with 11 samples.

Results

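The 9 genes described here are those of the lymphoid tissue chemokines and lymphotoxins: the ligands Ccl19, Ccl21a, Cxcl13 and Cxcl12, the receptors Cxcr5 and Ccr7, the lymphotoxin subunits Lta and Ltb, and the lymphotoxin receptor Ltbr. They were chosen by name for their role in organising lymphoid tissue, with earlier results of these data known. All 9 are among the 25677 genes listed in the kidney RNA-seq tables. The series compared whole kidneys of 3 groups of female mice at 21 weeks of age. The control group (Ctr, n = 3) was C57BL/6J mice, given as healthy controls. The Lpr group (n = 4) was untreated MRL/lpr mice, a lupus strain that carries the lpr mutation of the death receptor gene Fas. The DNase group (n = 4) was MRL/lpr mice that received DNase I by daily intraperitoneal injection from week 17. The enzyme cleaves DNA, and the study used it to break down neutrophil extracellular traps, webs of DNA and protein that neutrophils release. Strain and disease cannot be told apart between MRL/lpr and Ctr kidneys, because no healthy MRL kidney was compared, and the 3 comparisons share their groups of kidneys pairwise.

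In lymph nodes and spleen, stromal cells of the T cell zone secrete CCL19 and CCL21, which draw cells that carry CCR7, namely naive T cells and mature dendritic cells. Stromal cells of the B cell follicle secrete CXCL13, which draws B cells and follicular helper T cells through CXCR5. CXCL12 acts on CXCR4 and retains many leukocytes and progenitors. Lymphotoxin alpha and lymphotoxin beta form a membrane-bound complex on lymphocytes, and it engages the lymphotoxin beta receptor on stroma, where signalling through NIK (Map3k14), Nfkb2 and Relb maintains the homeostatic chemokines. Aggregates of lymphocytes with such an organisation can also form in chronically inflamed organs, where they are called tertiary lymphoid structures.

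Against Ctr, 5 of the 9 genes rose in Lpr kidneys at an adjusted p under 0.05 with an absolute log2 fold change above 2, the rule by which the 9 genes are called: Ccl19, Cxcl13, Cxcr5, Lta and Ltb. Of all 16074 genes tested, 4.65% rose by the same rule. The same 5 genes rose in DNase kidneys against Ctr, where 4.56% of 16100 genes did. Between DNase and Lpr kidneys none of the 9 passed, and neither did any other gene. Ccl19, Cxcl13 and Ltb kept the call in Lpr against Ctr under all 17 alternatives run for them, while Cxcr5 and Lta lost it under some. The median log2 fold change of the 9 genes was 2.53 in Lpr against Ctr, where that of all genes tested was 0.03. It was 2.34 in DNase against Ctr beside 0.002 for all genes, and -0.23 in DNase against Lpr beside -0.02. All p-values adjusted for multiple testing are from edgeR's quasi-likelihood test with Benjamini-Hochberg adjustment over every gene tested, unless another tool is named, and levels are counts scaled to the size of each library (CPM).

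**Figure D1:**
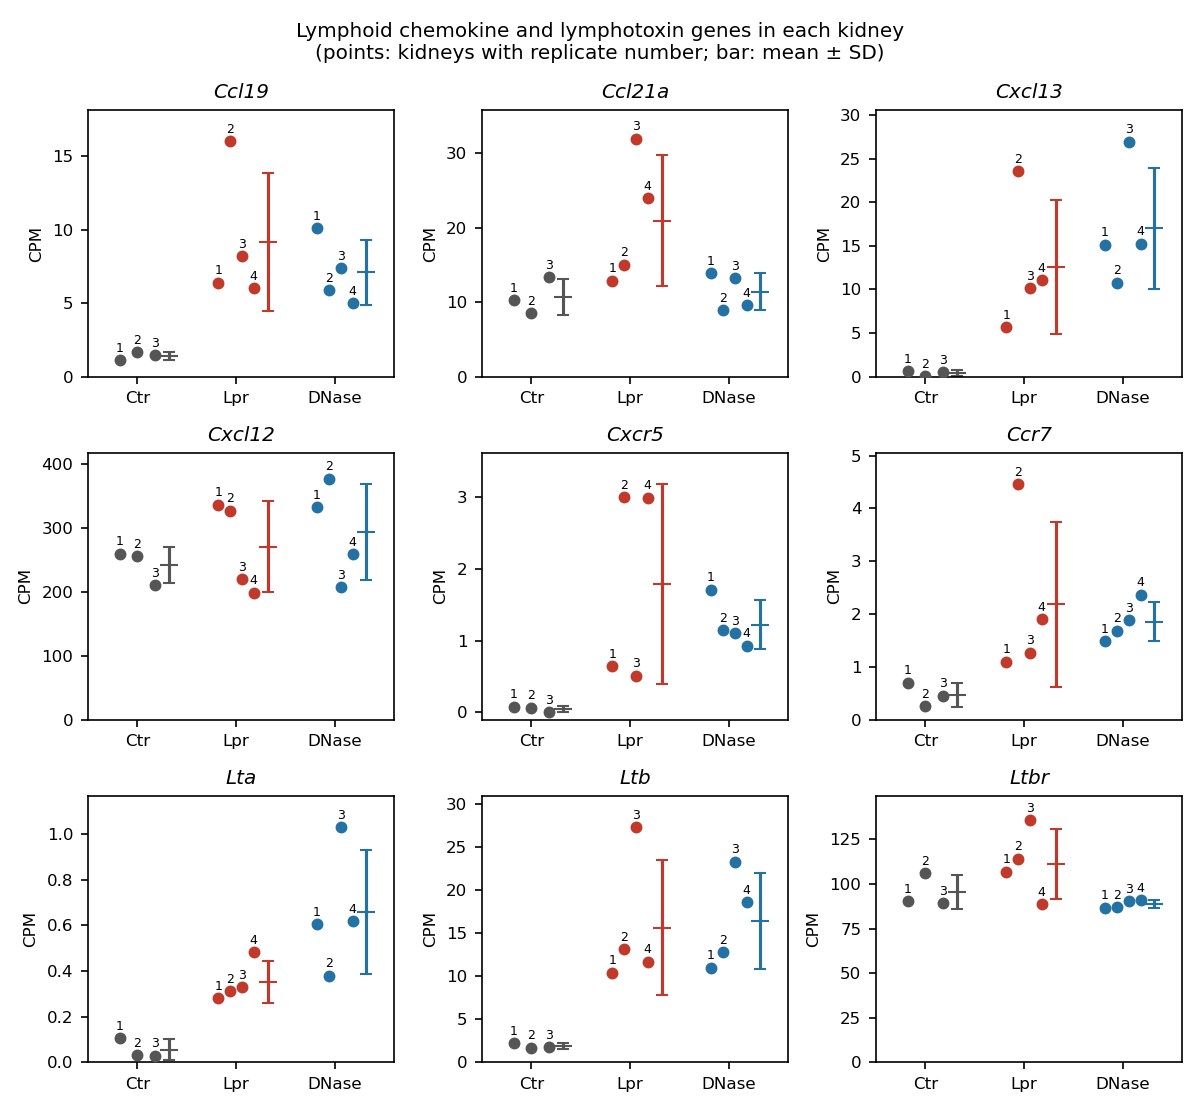
Level of each of the 9 genes in each kidney (CPM, linear axes), by group, with the replicate number beside each point and a bar at the mean ± SD of Ctr (n = 3), Lpr (n = 4) and DNase (n = 4) kidneys. Ccl19, Cxcl13, Cxcr5, Ccr7, Lta and Ltb lay higher in every MRL/lpr kidney than in any Ctr kidney, while the ranges of Ccl21a, Cxcl12 and Ltbr overlapped.

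The libraries held between 33469858 and 38460873 counts in genes. Lpr kidney 3 stood apart from the other 10 in the relation between transcript length and level: its slope was -0.39 log2 units per doubling of length, against -0.04 to 0.08 elsewhere, so that short transcripts read higher in it. Summed markers of kidney epithelium were 14994 to 16182 CPM in Ctr, 9711 to 13885 CPM in Lpr and 12308 to 15779 CPM in DNase kidneys, so that every Lpr kidney lay below every Ctr kidney. Of the 8 markers none passed in Lpr against Ctr, where 6 were lower, and Slc12a3 fell in DNase against Ctr (-0.69, adjusted p = 0.00174). Summed markers of adipose tissue ranged from 8.77 to 1451 CPM between kidneys, and those of adrenal cortex did not exceed 1.17 CPM. The 6 skeletal muscle markers, with a sum of 2.71 to 7.48 CPM in DNase, 10.6 to 14.9 CPM in Lpr and 11.9 to 29.0 CPM in Ctr kidneys, all fell in DNase against Ctr kidneys. Since these are bulk samples, more cells of a type and more RNA per cell cannot be told apart in any result.

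Cxcl13, the B cell follicle chemokine, is at chr5:95956951-95961068 on the plus strand (GRCm38). Its level was 0.644, 0.0319 and 0.480 CPM in Ctr kidneys 1 to 3, from 24, 1 and 16 counts. In the Lpr kidneys it was 5.66, 23.6, 10.2 and 11.1 CPM, and in the DNase kidneys 15.1, 10.8, 26.9 and 15.3 CPM. Every MRL/lpr kidney was above every Ctr kidney, and the ranges of the Lpr and DNase groups overlapped, with the highest value in DNase kidney 3 and the lowest in Lpr kidney 1. Cxcl13 rose by a log2 fold change of 5.00 (SE 0.81, adjusted p = 0.00521) in Lpr and of 5.42 (SE 0.57, adjusted p = 0.000165) in DNase kidneys against Ctr. The fold rests on few Ctr counts: without Ctr kidney 2 the Lpr value was 4.48 and without Ctr kidney 1 it was 5.59, both still past the threshold. Between DNase and Lpr kidneys the log2 difference was 0.44 (95% interval -0.50 to 1.38, adjusted p = 0.855), an interval that reaches from lower to more than 2-fold higher in DNase kidneys. It was 0.92 without Lpr kidney 2 and 0.13 without DNase kidney 3.

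Stretches upstream of 2 genes that rose, Cxcl13 and Ltb, are shown because a searched motif lies in them. RefSeq promoters (GRCm38.p6, 250 bases before to 50 after the start) matched 7 of the 9 genes. The stretches end before the start of the gene in both RefSeq and GENCODE, and run 5′ to 3′ on the gene's strand. In Cxcl13 (chr5:95956689-95956938, plus strand) the capitals mark a TATAAA, searched on the gene's strand, 46 bases before the RefSeq start. In Ltb (chr17:35194257-35194438, plus strand) they mark a match to the NF-kappaB consensus, searched on both strands, 87 bases before the RefSeq start.
Cxcl13: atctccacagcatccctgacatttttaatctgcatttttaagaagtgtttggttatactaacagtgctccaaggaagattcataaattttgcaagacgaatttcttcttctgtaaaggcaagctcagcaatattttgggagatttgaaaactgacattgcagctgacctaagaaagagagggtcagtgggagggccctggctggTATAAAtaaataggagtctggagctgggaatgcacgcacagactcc
Ltb: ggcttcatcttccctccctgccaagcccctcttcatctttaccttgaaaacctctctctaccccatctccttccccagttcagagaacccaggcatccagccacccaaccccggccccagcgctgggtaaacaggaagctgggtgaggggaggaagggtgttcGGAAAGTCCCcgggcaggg
Of 27025 RefSeq promoters of the same length, 8.88% held TATAAA on the gene's strand and 8.18% held the NF-kappaB consensus. Among the 7 genes, TATAAA was found once more, in Lta at 167 bases before the RefSeq start, a stretch that is not shown. The pattern GAAANNGAAA, which 3.49% of promoters held on either strand, was found in Ccl19 alone, 208 bases before the RefSeq start. That match in Ccl19 lies inside the gene as placed by GENCODE. These are matches of letters, and the absence of a match says only that the letters are not in the window.

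Ccl19, the T cell zone ligand of CCR7, is at chr4:42754525-42756577 on the minus strand. Its level was 1.10, 1.66 and 1.47 CPM in the Ctr kidneys. In the Lpr kidneys it was 6.39, 16.0, 8.18 and 6.00 CPM, and in the DNase kidneys 10.1, 5.90, 7.41 and 4.99 CPM. Every MRL/lpr kidney was above every Ctr kidney, and Lpr kidney 2, also the highest Lpr kidney for Cxcl13, was the highest of all. The log2 fold change was 2.71 (SE 0.43, adjusted p = 0.00473) in Lpr and 2.34 (SE 0.29, adjusted p = 0.000396) in DNase kidneys against Ctr, and -0.36 (95% interval -1.15 to 0.43, adjusted p = 0.856) between DNase and Lpr. Without Lpr kidney 2 the last value was 0.05.

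The counts of Ccl19 are uncertain, because near-identical copies share its sequence. In the GENCODE transcripts, Gm2564 matched 88.9% of the Ccl19 transcript at 98.8% identity, and Ccl19-ps1, Ccl19-ps3 and Gm12407 matched 36.9% to 37.0% of it. Of these, Gm12407 alone is listed in the tables, and it was named here after its values were seen. It had 16, 5 and 10 counts in the Ctr kidneys, 493, 529, 385 and 372 in the Lpr kidneys and 633, 461, 488 and 376 in the DNase kidneys. That is a log2 fold change of 5.36 (SE 0.37, adjusted p = 0.000201) in Lpr and 5.41 (SE 0.34, adjusted p = 9.76e-06) in DNase kidneys against Ctr. Among the Lpr kidneys Ccl19 ranged from 211 to 615 counts, a wider spread than that of Gm12407. The difference of Gm12407 between DNase and Lpr kidneys was 0.07 (SE 0.20, adjusted p = 0.944). How reads were divided between Ccl19 and its copies in the 2 strains was not tested.

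Ccl21a, the other ligand of CCR7, lies beside Ccl19 at chr4:42772860-42773993 on the minus strand, and the pair spans 19.5 kb. It did not show the step between strains that Ccl19 did. Its level was 10.3, 8.56 and 13.3 CPM in the Ctr kidneys, 12.9, 15.0, 32 and 24 CPM in the Lpr kidneys, and 13.9, 8.89, 13.3 and 9.62 CPM in the DNase kidneys. Lpr kidneys 3 and 4 were above all others, whereas Lpr kidney 1 lay within the Ctr range and the DNase range lay close to that of Ctr. The log2 fold change between Lpr and Ctr was 0.97 (SE 0.34, unadjusted p = 0.0192, adjusted p = 0.125), and DESeq2 gave an adjusted p of 0.049. Between DNase and Lpr kidneys it was -0.87 (SE 0.30, 95% interval -1.53 to -0.20, unadjusted p = 0.0165), which did not pass the adjustment (adjusted p = 0.82). Between DNase and Ctr it was 0.09 (SE 0.21, adjusted p = 0.8).

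Both Lpr kidneys with high Ccl21a also had the most adipose marker RNA of their group. The summed CPM of the 8 adipose markers, which include Adipoq (adiponectin) and Plin1 (perilipin of the fat droplet), was 1451 in Lpr kidney 3 and 989 in Lpr kidney 4, against 11.8 in Lpr kidney 1 and 34.3 in Lpr kidney 2. It was 646, 51.5 and 1410 in Ctr kidneys 1 to 3 and 8.77, 324, 27.5 and 153 in DNase kidneys 1 to 4. Within Ctr, Ccl21a was likewise lowest in kidney 2, the one with the least adipose RNA, but within the DNase group kidney 2 had the most adipose RNA and the least Ccl21a. The summed markers of lymphatic endothelium, itself a source of CCL21, were lowest of all in Lpr kidney 3 (31.3 CPM). They were 62.1 CPM in Lpr kidney 4, against 40.7 to 72.8 CPM in the other 9 kidneys. That sum leans on Prox1 and Flt4, with means of 21.2 and 17.6 CPM in Ctr kidneys. The less abundant Lyve1 and Mmrn1 were highest of all kidneys in Lpr kidney 4, at 101 and 208 counts, and had 16 and 63 in Lpr kidney 3. Whether lymphatic RNA bears on Ccl21a was not tested. With the adipose score of each kidney as a covariate, an alternative chosen after seeing the data, the Lpr against Ctr value of Ccl21a was 1.14 (adjusted p = 0.0116, edgeR) and the DNase against Lpr value -0.67 (adjusted p = 0.987). Leaving out Lpr kidney 3, the kidney with the length slope, gave 0.69 (adjusted p = 0.124) and -0.60 (adjusted p = 0.464) for the same comparisons. Over all alternatives run, the adjusted p of Ccl21a ranged from 0.0116 to 0.352 in Lpr against Ctr and from 0.314 to 0.997 in DNase against Lpr.

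**Figure D2:**
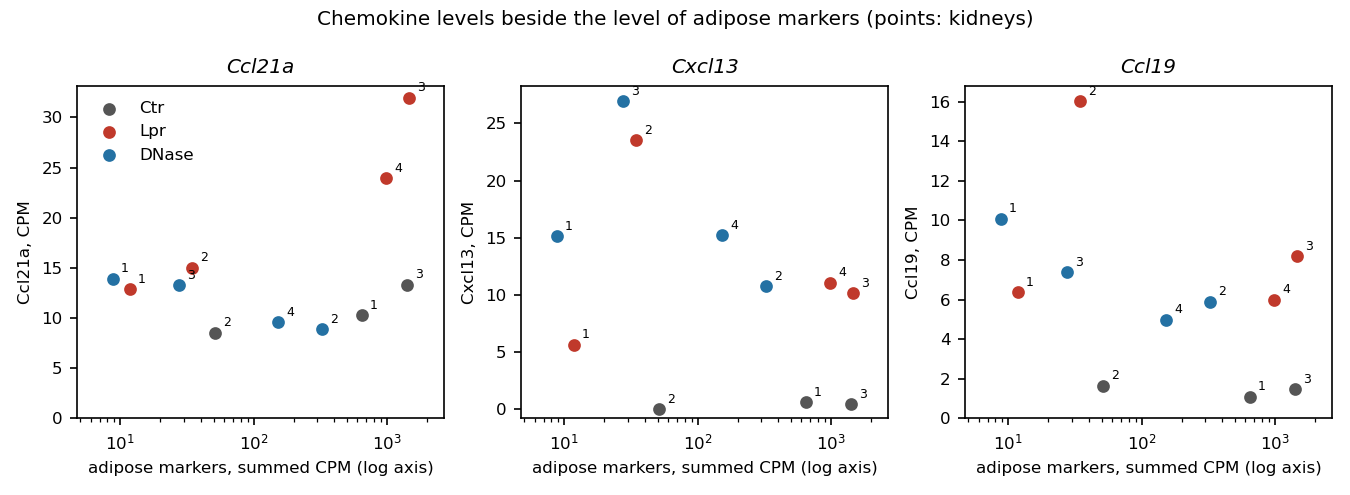
Level of Ccl21a, Cxcl13 and Ccl19 in each of the 11 kidneys (CPM) against the summed level of 8 adipose markers (CPM, log axis), coloured by group and numbered by replicate. Ccl21a was highest in Lpr kidneys 3 and 4, at 1451 and 989 CPM of adipose markers, while Cxcl13 was highest in DNase kidney 3 and Lpr kidney 2, at 27.5 and 34.3 CPM.

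Cxcl13 and Ccl19 were also read beside the adipose markers. DNase kidney 3 and Lpr kidney 2, with the highest Cxcl13, had 27.5 and 34.3 summed CPM of adipose markers, less than any Ctr kidney. In the Ctr group, by contrast, 24 and 16 counts of Cxcl13 came from kidneys 1 and 3, which were rich in adipose RNA, and 1 count came from kidney 2. With the adipose score as a covariate, Cxcl13 kept a log2 fold change of 5.10 (adjusted p = 0.0102) in Lpr and 5.33 (adjusted p = 0.0013) in DNase kidneys against Ctr. Ccl19 had 2.54 (adjusted p = 0.00885) and 1.91 (adjusted p = 0.00158), the second of which is under the fold threshold. Its level was highest in Lpr kidney 2 (16.0 CPM) and DNase kidney 1 (10.1 CPM), at 34.3 and 8.77 CPM of adipose markers. Lpr kidney 1, at 11.8 CPM of adipose markers, had 6.39 CPM of Ccl19. How much of the RNA of either gene came from adipose tissue was not tested.

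Ccl21a is also measured beside copies of itself. Gm21541 matched the whole Ccl21a transcript at 99.3% identity and Gm13304 matched 96.2% of it at 99.4%, while Ccl21b and Gm10591 each matched 46.2%. The 2 last are listed in the tables, with at most 17 and 12 counts in any kidney against at least 268 for Ccl21a. Ccl21b had no count in any Ctr kidney and its highest count was in Lpr kidney 2.

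Cxcl12, at chr6:117168535-117181367 on the plus strand, was the most abundant chemokine of the 4. Its level ranged from 210 to 260 CPM in Ctr, 199 to 337 CPM in Lpr and 207 to 377 CPM in DNase kidneys. The ranges overlapped in all 3 comparisons, and the log2 fold changes were 0.17 (95% interval -0.36 to 0.70, adjusted p = 0.744) in Lpr and 0.28 (95% interval -0.14 to 0.71, adjusted p = 0.342) in DNase against Ctr. Their upper bounds were far under the rise of Cxcl13 or Ccl19. Cxcl12 and Ccl21a tended to opposite ends among the 4 Lpr kidneys: kidneys 1 and 2 had the more Cxcl12 and kidneys 3 and 4 the more Ccl21a.

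Per length, the order of the 9 genes differed between the groups. On the deposited FPKM scale (fragments scaled to transcript length and library depth), mean levels in Ctr kidneys ran from Ltbr (39.5 ± 2.79, SD, n = 3) and Cxcl12 (32.6 ± 3.40) through Ccl21a (12 ± 2.97), Ccl19 (2.40 ± 0.442) and Ltb (1.68 ± 0.295) to Cxcl13 (0.325 ± 0.268), Ccr7 (0.230 ± 0.112), Lta (0.0337 ± 0.0267) and Cxcr5 (0.0175 ± 0.0156). Ccl19 and Ltb overlapped over kidneys there, as did Cxcl13 and Ccr7, and Lta and Cxcr5. In Lpr kidneys Ltbr (47.3 ± 6.38, SD, n = 4), Cxcl12 (37.6 ± 10.6), Ccl21a (23.7 ± 8.99), Ccl19 (16.1 ± 8.76), Ltb (13.9 ± 6.16) and Cxcl13 (10.9 ± 6.98) each overlapped with the next, and all were above Ccr7 (1.12 ± 0.833), Cxcr5 (0.690 ± 0.554) and Lta (0.216 ± 0.0612), which again overlapped in turn. In DNase kidneys Ltb (15.4 ± 5.27), Cxcl13 (15.2 ± 6.25), Ccl21a (13.6 ± 3.14) and Ccl19 (13.0 ± 4.20) overlapped with their neighbours, while Cxcl12 (42.4 ± 11.1) and Ltbr (39.4 ± 0.776) lay above them and Ccr7 (0.969 ± 0.182), Cxcr5 (0.479 ± 0.138) and Lta (0.419 ± 0.174) lay at the low end, with Cxcr5 and Lta overlapping. Cxcl13 thus stood at the level of the receptor Ccr7 in Ctr kidneys and among the ligands in MRL/lpr kidneys.

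Cxcr5, the receptor of CXCL13, is at chr9:44511787-44561877 on the minus strand, and 3.3% of its exon bases overlap Bcl9l on the opposite strand. It had 3, 2 and 0 counts in the Ctr kidneys. In the Lpr kidneys it had 23, 115, 17 and 105 counts (0.647, 3.00, 0.511 and 2.99 CPM), and in the DNase kidneys 62, 42, 44 and 36 counts (1.71, 1.14, 1.10 and 0.926 CPM). Lpr kidneys 2 and 4 were above every DNase kidney and Lpr kidneys 1 and 3 below, so that the Lpr group was split around a narrow DNase group. Pooled over kidneys, the rate was 38.3 times that of Ctr in Lpr (95% exact interval 16.2 to 119, 260 against 5 counts) and 26.4 times in DNase kidneys (11.1 to 82.4, 184 against 5 counts), intervals that cover counting error only.

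The fitted log2 fold change of Cxcr5 was 5.10 (SE 1.06, adjusted p = 0.0156) in Lpr and 4.55 (SE 0.61, adjusted p = 0.000582) in DNase against Ctr. The Lpr call did not survive leaving out any 1 Ctr kidney (adjusted p = 0.061, 0.0656 and 0.0595 without kidneys 1, 2 and 3), with a fold change of 4.56 to 5.70, and over all alternatives its adjusted p ranged from 4.22e-06 to 0.233. Between DNase and Lpr kidneys the difference was -0.54 (95% interval -1.83 to 0.75, adjusted p = 0.861), and with 1 kidney left out it ranged from -0.86 without Lpr kidney 3 to -0.18 without Lpr kidney 2 or Lpr kidney 4. Bcl9l itself, with 812 to 2368 counts, did not follow Cxcr5: its log2 fold change was -0.14 in Lpr and -0.28 in DNase kidneys against Ctr, and neither passed the test (adjusted p = 0.842 and 0.112).

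Ccr7, the receptor of CCL19 and CCL21, is at chr11:99144196-99155077 on the minus strand. Its level was 0.698, 0.255 and 0.450 CPM in the Ctr kidneys, 1.10, 4.46, 1.26 and 1.91 CPM in the Lpr kidneys, and 1.49, 1.69, 1.88 and 2.37 CPM in the DNase kidneys. The MRL/lpr kidneys were all above the Ctr kidneys, and Lpr kidney 2 was again the highest. Ccr7 did not pass in Lpr against Ctr (log2 fold change 2.21, SE 0.62, adjusted p = 0.0598), although DESeq2 gave an adjusted p of 0.00356 and called 6 of the 9 genes. The adjusted p of Ccr7 in this comparison ranged from 0.00356 to 0.244 over the alternatives. In DNase against Ctr it passed the adjusted p alone (1.97, SE 0.37, adjusted p = 0.00431) with a fold just under the threshold. By the adjusted p alone, 5 of the 9 genes were higher in Lpr and 6 of the 9 in DNase kidneys against Ctr and none lower, where 7.27% and 13.1% of all genes were higher and 2.92% and 8.61% lower. Between DNase and Lpr the difference of Ccr7 was -0.23 (95% interval -1.22 to 0.76) and, without Lpr kidney 2, it was 0.38.

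Lta and Ltb lie with Tnf between them in one cluster on chromosome 17, Ltb at chr17:35194439-35196320 on the plus strand and Lta at chr17:35203165-35205351 on the minus strand, a span of 10.9 kb. Lta, the soluble or complex-forming subunit, had 4, 1 and 1 counts in the Ctr kidneys. It had 10, 12, 11 and 17 counts in the Lpr kidneys (0.281, 0.313, 0.331 and 0.484 CPM) and 22, 14, 41 and 24 counts in the DNase kidneys (0.607, 0.381, 1.03 and 0.617 CPM). All MRL/lpr kidneys were above Ctr, and 3 of the 4 DNase kidneys were above all 4 Lpr kidneys. Pooled, the rate was 6.14 times that of Ctr in Lpr (95% exact interval 2.63 to 17.5, 50 against 6 counts) and 12.1 times in DNase kidneys (5.36 to 33.7, 101 against 6 counts).

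The fitted log2 fold change of Lta was 2.53 (SE 0.62, adjusted p = 0.0302) in Lpr and 3.43 (SE 0.62, adjusted p = 0.00314) in DNase against Ctr. In Lpr it lost the call in 6 of the 13 alternatives that gave a value, among them leaving out Ctr kidney 2 (adjusted p = 0.132), Ctr kidney 3 (0.141) or Lpr kidney 4 (0.0617), and its adjusted p ranged from 0.0106 to 0.141 over them. Against Lpr kidneys, DNase kidneys differed by 0.91 (SE 0.39, 95% interval 0.03 to 1.79, unadjusted p = 0.0425), which did not pass (adjusted p = 0.854). Lta was thus, with Ccl21a in the other direction, 1 of 2 of the 9 genes at an unadjusted p under 0.05 in this comparison, a level that 5.6% of all 15832 genes reached.

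Ltb, the membrane anchor of the complex, was far more abundant. Its level was 2.25, 1.69 and 1.77 CPM in the Ctr kidneys. It was 10.4, 13.1, 27.3 and 11.7 CPM in the Lpr kidneys and 11.0, 12.7, 23.2 and 18.5 CPM in the DNase kidneys. The groups of MRL/lpr kidneys lay entirely above Ctr and overlapped each other, with Lpr kidney 3 and DNase kidney 3 highest. Ltb had the smallest adjusted p of the 9 genes in both comparisons with Ctr, with log2 fold changes of 3.03 (SE 0.40, adjusted p = 0.00209) in Lpr and 3.10 (SE 0.29, adjusted p = 8.8e-05) in DNase kidneys. The difference between DNase and Lpr was 0.08 (95% interval -0.70 to 0.85, adjusted p = 0.964). Ltb is a short transcript, and without Lpr kidney 3 its Lpr against Ctr value was 2.62 (adjusted p = 0.000355) and its DNase against Lpr value 0.48.

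Ltbr, the receptor that both lymphotoxin subunits engage as a complex, is at chr6:125306571-125313885 on the minus strand. It was abundant in all groups: 90.5, 106 and 89.3 CPM in Ctr, 107, 114, 136 and 88.6 CPM in Lpr and 86.7, 87.2, 90.5 and 90.8 CPM in DNase kidneys. The groups overlapped, with 3 of the 4 Lpr kidneys above all Ctr kidneys and the DNase kidneys within a narrow band. No comparison passed, with log2 fold changes of 0.23 (95% interval -0.18 to 0.64, adjusted p = 0.535) in Lpr against Ctr, -0.10 (-0.27 to 0.08, adjusted p = 0.423) in DNase against Ctr and -0.32 (-0.65 to 0.01, adjusted p = 0.854) in DNase against Lpr.

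**Figure D3:**
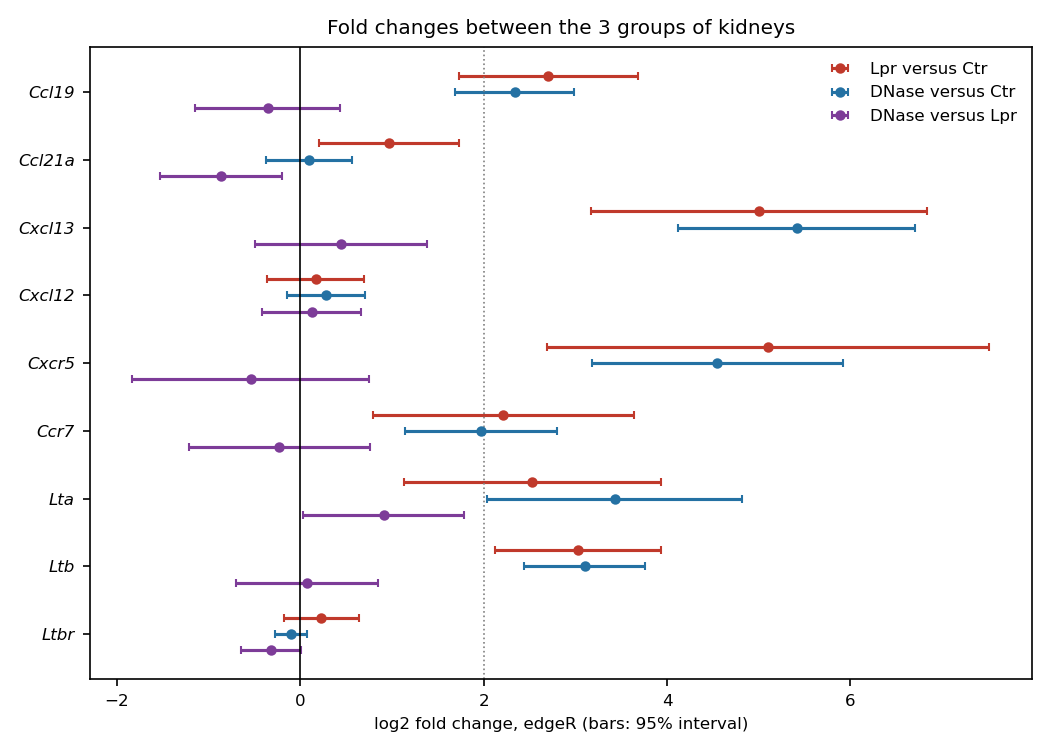
log2 fold change of the 9 genes from edgeR in each of the 3 comparisons, with 95% intervals and a dotted line at the fold threshold of 2. In the comparisons with Ctr the estimates of Ccl19, Cxcl13, Cxcr5, Lta and Ltb lie right of the line, while the intervals of Cxcl12 and Ltbr include 0; in DNase against Lpr the estimates lie between -0.87 and 0.91.

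The comparison of DNase with Lpr kidneys asks whether the treatment changed these genes, and 4 of the 9 were higher and 5 lower. No gene of 15832 passed the adjusted p from edgeR, with or without the fold threshold (0%), and 886 genes were at an unadjusted p under 0.05. DESeq2 called 5 genes and placed 24 at an adjusted p under 0.05, none of them among the 9. The adjusted p of the 9 genes lay between 0.82 and 0.964. The intervals leave room for sizeable differences either way: the lower bounds of Ccl19 (-1.15), Ccl21a (-1.53), Cxcr5 (-1.83) and Ccr7 (-1.22) each stand for a level more than 2-fold lower, and the upper bounds of Cxcl13 (1.38) and Lta (1.79) for one more than 2-fold higher. Over all 15832 genes, 1.92% lay entirely above and 1.87% entirely below Lpr in the DNase kidneys, and 0 of the 9 did either. Against Ctr, 6 of the 9 lay entirely above in both groups of MRL/lpr kidneys, where 14.4% of all genes in Lpr and 18% in DNase kidneys lay above and 11.2% and 13.9% below.

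The other genes of the pathway and the marker lists were read by the adjusted p alone, with no threshold on the fold, and "rose" and "fell" have that sense for them. The lymphotoxin pathway list held 10 genes. Of these, 3 rose and 1 fell in Lpr kidneys against Ctr (median log2 fold change 0.69, against 0.03 for all genes), and 4 rose and 1 fell in DNase kidneys (median 0.35). Tnfrsf14, which encodes HVEM, the receptor of LIGHT, rose from 2.58 ± 0.233 CPM (SD, n = 3) to 18.7 ± 5.50 CPM (n = 4) in Lpr and 15.9 ± 2.40 CPM (n = 4) in DNase kidneys. Its log2 fold changes were 2.86 (adjusted p = 0.000715) and 2.62 (adjusted p = 1.09e-05). Relb and Nfkb2, the transcription factor subunits of the non-canonical pathway, rose by 1.45 (adjusted p = 0.0138) and 0.91 (adjusted p = 0.026) in Lpr and by 1.03 (adjusted p = 0.000468) and 0.63 (adjusted p = 0.00671) in DNase kidneys. Chuk, the kinase IKK-alpha that acts on Nfkb2, fell by 0.61 (adjusted p = 0.0235) and 0.65 (adjusted p = 0.000334). Map3k14 (NIK) did not pass in Lpr (0.42, adjusted p = 0.466), nor did Tnfsf14, which encodes the ligand LIGHT (0.98, adjusted p = 0.257, 6 to 23 counts a kidney). In DNase kidneys 9 of the 10 were lower than in Lpr kidneys and none passed (median -0.25). Neither were any of the 10 at an unadjusted p under 0.05, and Relb was nearest (-0.42, adjusted p = 0.854).

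Tnf, the gene between Lta and Ltb, had 6 counts in each Ctr kidney and 12 to 50 in the Lpr kidneys, and it rose by 2.12 (adjusted p = 0.0425) in Lpr and 2.30 (adjusted p = 0.0199) in DNase kidneys. Of the TNF receptors, Tnfrsf1b rose by 2.01 (adjusted p = 0.00359) and 1.84 (adjusted p = 0.000242), and Tnfrsf1a did not pass. Of the list of other lymphoid chemokines and receptors, 6 of 8 genes are listed and 4 were tested against Ctr. None passed in Lpr, where Cxcr4, the receptor of CXCL12, had a log2 fold change of 1.61 (adjusted p = 0.0606) and Ccr6, a B cell and T cell receptor of CCL20, 2.12 (adjusted p = 0.103). In DNase kidneys both rose, by 1.27 (adjusted p = 0.00162) and 2.59 (adjusted p = 0.00379). The atypical receptors Ackr3 and Ackr4, which bind CXCL12 and the CCR7 ligands without signalling as chemokine receptors do, did not pass in any comparison. Ccl20 had 149 counts in Lpr kidney 3 and at most 14 in the others.

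The cells that carry these receptors were read from marker lists. All 10 T cell markers rose in both comparisons with Ctr by the adjusted p alone (10 in Lpr and 9 in DNase kidneys also passed the fold threshold), with a median log2 fold change of 3.77 in Lpr and 3.52 in DNase kidneys. Their summed level was 6.99 to 13.6 CPM in Ctr, 63.1 to 172 CPM in Lpr and 66.3 to 111 CPM in DNase kidneys, highest in Lpr kidney 2, the kidney with the most Ccl19, Ccr7 and Cxcr5. Of the list for follicular helper T cells, which carry CXCR5, 5 of 6 genes tested rose in Lpr and 6 of 7 in DNase kidneys. Slamf6 rose by 5.40 (adjusted p = 0.00173) and Icos by 5.15 (adjusted p = 0.00383) in Lpr. Maf, which kidney cells also express, was at 5472 to 9001 counts everywhere and makes up most of that list's sum. Ascl2, of the same list, had 0 to 5 counts a kidney and was not tested. Bcl6, of the germinal centre list, did not pass in Lpr (0.33, adjusted p = 0.842) or DNase kidneys (0.43, adjusted p = 0.577) against Ctr. Whether the genes that rose came from follicular helper T cells or from other T cells was not tested. Of the naive and central memory T cell list, 3 of 7 rose in Lpr, among them Il7r and Tcf7, with a median of 0.92, and 3 rose and 1 fell in DNase kidneys.

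B cell markers moved less evenly. Of 9 tested, 2 rose in Lpr kidneys, Cd22 by 5.47 (adjusted p = 0.00333) and Cd79a by 3.09 (adjusted p = 0.0346), with a median of 1.28, and 6 of 10 rose in DNase kidneys, with a median of 2.31. Their sum was 2.81 to 10.2 CPM in Ctr, 19.8 to 34.3 CPM in Lpr and 21.3 to 51.0 CPM in DNase kidneys, and Ctr kidney 2, with 1 count of Cxcl13, had the lowest. In DNase against Lpr kidneys 10 of 10 were positive, with a median of 0.99, 5 at an unadjusted p under 0.05 and none past the adjustment, while all genes had a median of -0.02. Pax5, a B cell transcription factor, had the smallest p of them (log2 difference 2.29, unadjusted p = 0.000531, adjusted p = 0.82). Cxcr5 did not share that direction, with -0.54.

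Relative to those markers, the receptors and lymphotoxins showed different patterns (log2 CPM of the gene minus the mean log2 CPM of the list, per kidney). Ccr7 was lower relative to T cell markers in MRL/lpr than in Ctr kidneys: -0.384, -0.728 and -0.862 in Ctr, -2.22, -1.76, -2.68 and -1.98 in Lpr and -1.96, -2.08, -2.34 and -1.85 in DNase kidneys. The groups did not overlap, and the differences of the means were -1.50 and -1.40 log2 units, each with an exact two-sided permutation p of 0.0571. That is the smallest p that 3 against 4 kidneys can give, so no such comparison with Ctr could pass 0.05, and the adjusted values over 6 such comparisons were 0.114 and 0.343. Lta relative to T cell markers differed by -1.56 in Lpr against Ctr (exact permutation p = 0.0571, adjusted p = 0.114) and by -0.68 in DNase against Ctr (exact permutation p = 0.171, adjusted p = 0.343). At 1 to 4 counts of Lta in a Ctr kidney, the prior count used on the log scale raises its level there.

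Ltb relative to T cell markers differed between groups by less than the spread between kidneys, by -0.57 in Lpr (exact permutation p = 0.286, adjusted p = 0.286) and -0.33 in DNase kidneys (exact permutation p = 0.286, adjusted p = 0.343) against Ctr. Relative to B cell markers Ltb was 3.25, 3.23, 4.81 and 3.24 in Lpr and 2.93, 2.53, 2.79 and 3.15 in DNase kidneys, groups that did not overlap. The difference was -0.78 (exact two-sided permutation p = 0.0286, the smallest that 4 against 4 can give, adjusted p = 0.171). It was -0.39 without Lpr kidney 3, the kidney with the length slope, and -0.13 on log2(FPKM + 1). Cxcr5 relative to B cell markers was -0.649, 1.12, -0.778 and 1.30 in Lpr and 0.288, -0.889, -1.54 and -1.10 in DNase kidneys, a difference of -1.06 (exact permutation p = 0.171, adjusted p = 0.343). Relative to follicular helper T cell markers Cxcr5 differed by 1.05 in Lpr against Ctr (exact permutation p = 0.286, adjusted p = 0.286) and by -0.36 in DNase against Lpr (exact permutation p = 0.629, adjusted p = 0.657), both within the spread of kidneys. In Ctr kidneys Cxcr5 (3, 2 and 0 counts) and most genes of that list were near the floor, where the prior count weighs on the value. Over the alternatives the Lpr against Ctr difference ranged from 0.06 to 1.43.

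**Figure D4:**
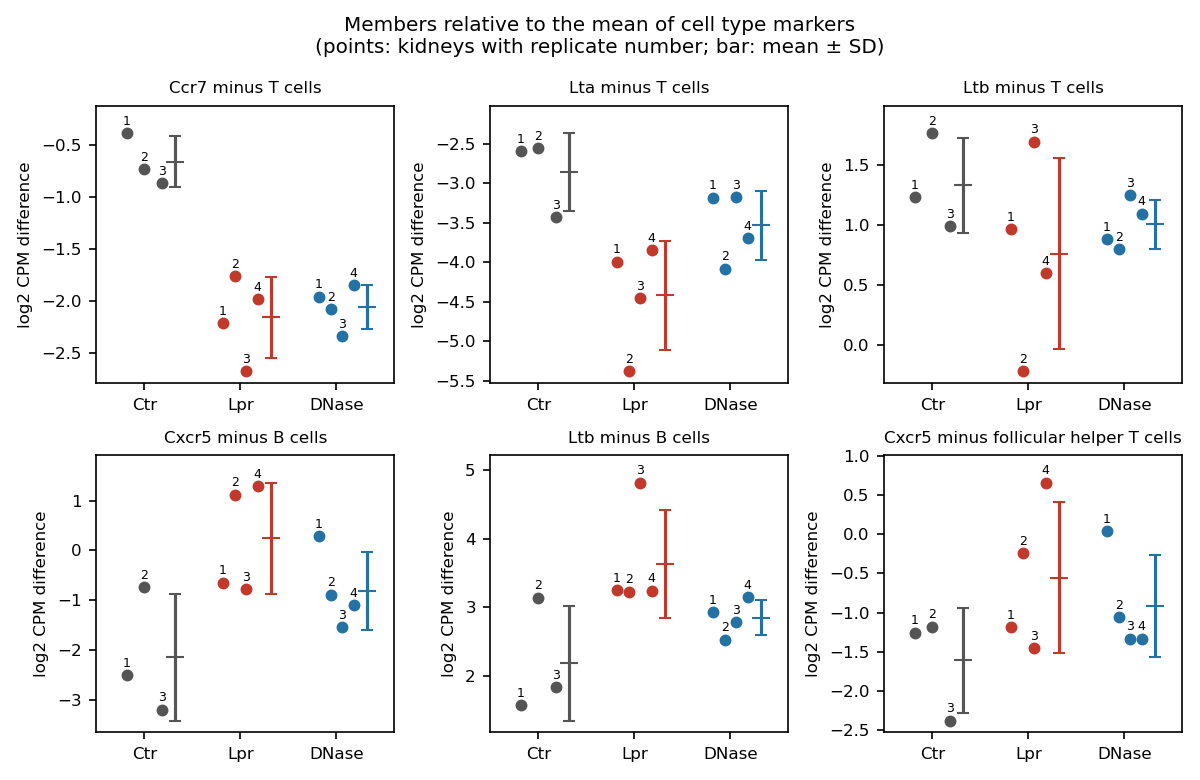
Ccr7, Lta, Ltb and Cxcr5 relative to cell type markers (log2 CPM of the gene minus the mean log2 CPM of the list), 1 point per kidney with its replicate number and a bar at the mean ± SD of each group. Ccr7 relative to T cells lies between -0.862 and -0.384 in Ctr and between -2.68 and -1.76 in MRL/lpr kidneys, while Ltb relative to T cells overlaps between all groups.

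Markers of the structures in which these chemokines normally act were at or near the floor in part. Of the high endothelial venule list, the defining genes Glycam1 and Chst4 had at most 3 and 4 counts in any kidney, and Fut7, also made by leukocytes, rose by 3.33 (adjusted p = 0.00859) in Lpr and 3.82 (adjusted p = 0.00155) in DNase kidneys. Gcnt1 and Enpp2 had at least 6716 counts in every kidney, Ctr included, and did not pass. In the germinal centre list Rgs13 had at most 1 count, while Gcsam rose by 2.73 (adjusted p = 0.0174) and S1pr2 by 1.03 (adjusted p = 0.0221) in Lpr kidneys, 2 of 4 tested by the adjusted p alone, as did 2 of 4 in DNase kidneys, and 1 and 0 of them also passed the fold threshold. Cr2, a B cell and follicular dendritic cell receptor, had 34 to 66 counts in Ctr, 12 to 27 in Lpr and 17 to 34 in DNase kidneys. It did not pass against Ctr in Lpr (-1.25, adjusted p = 0.0988) or in DNase kidneys (-0.92, adjusted p = 0.0874).

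Of the lymphoid stroma and follicular dendritic cell list, 4 of 10 rose in Lpr kidneys: Vcam1, an adhesion molecule, by 3.62 (adjusted p = 0.00351), Tnfsf13b, the B cell survival factor BAFF, by 2.57 (adjusted p = 0.00425), Icam1 and Il33. In DNase against Ctr 5 rose and 1 fell of 11. Among those that rose was Madcam1 (3.13, adjusted p = 0.0118), with 2, 2 and 0 counts in Ctr and 7, 18, 17 and 14 in DNase kidneys. Madcam1 had 7, 17, 49 and 3 counts in Lpr kidneys 1 to 4 and was not tested in Lpr against Ctr. All 11 were lower in DNase than in Lpr kidneys, with a median of -0.49 against -0.02 for all genes, 2 at an unadjusted p under 0.05 and none past the adjustment. Kidney cells also express most of these genes, with a summed level of 303 to 319 CPM in Ctr kidneys. Tnfsf11, which encodes the cytokine RANKL of lymphoid tissue inducer cells and activated T cells, rose from 0, 0 and 1 counts in Ctr to 12 to 21 in Lpr kidneys (log2 fold change 5.18, adjusted p = 0.00495), the only 1 of 4 tested on its list to rise, in Lpr and in DNase kidneys alike. Of mature dendritic cell markers, cells that carry CCR7, 2 of 8 rose in Lpr, Cd83 by 2.44 (adjusted p = 0.0344) and Flt3 by 1.82 (adjusted p = 0.048), and 3 rose and 1 fell of 7 in DNase kidneys, while Lamp3 had at most 3 counts. None of the 6 lymphatic endothelium markers passed in any comparison, and of the adipose markers only Ucp1, of brown fat, passed in any, a fall in DNase against Ctr kidneys.

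**Figure D5:**
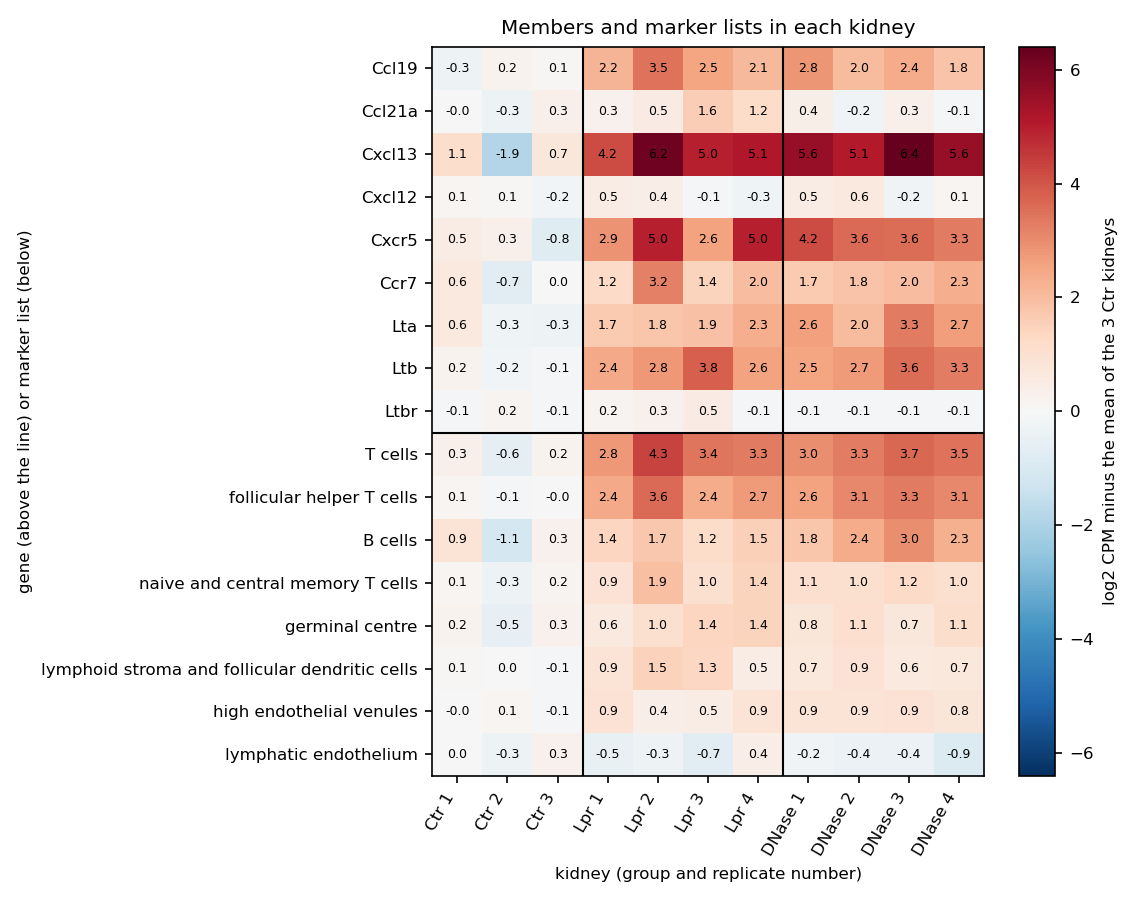
Level of the 9 genes (log2 CPM) and the mean log2 CPM of 8 marker lists in each of the 11 kidneys, as the difference from the mean of the 3 Ctr kidneys, with columns grouped as Ctr, Lpr and DNase. Cxcl13 and Cxcr5 are among the darkest rows in the MRL/lpr kidneys, Cxcl12 and Ltbr stay near 0 throughout, and Lpr kidney 2 is the highest for T cells, Ccl19, Cxcr5 and Ccr7.

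Among the 8 MRL/lpr kidneys, pooled over both groups, the 9 genes did not vary as one block. The highest Pearson correlation of log2 CPM between a pair of them was between Cxcl13 and Ccr7 (r = 0.716), followed by Cxcr5 and Ccr7 (r = 0.681) and Cxcl13 and Lta (r = 0.63), while Ccl21a and Cxcl12, Ltb and Cxcl12, and Lta and Ltbr were at -0.615. Lta and Ltb, whose products form 1 complex, had r = 0.345. Of 13226 other genes, the most like Cxcl13 were Zfp868 (r = 0.953) and Cd247 (r = 0.953), the latter encoding the zeta chain of the T cell receptor complex. Ltb was most like Prps1 (r = 0.972) and Ccl4 (r = 0.967), the latter a chemokine of T cells and macrophages. The genes most like Cxcr5 were Lrrfip1 (r = 0.991) and Pfkfb3 (r = 0.984), and those most like Ccr7 were Bhlhe40 (r = 0.985) and Cttn (r = 0.961). The others were Hnrnpd and Spata6 for Ccl19 (r = 0.977 and 0.958), Ica1 and Rbm38 for Ccl21a (0.967 and 0.953), Meis1 and Ano5 for Cxcl12 (0.968 and 0.952), Mtarc1 and Atad3a for Lta (0.948 and 0.931) and Dbnl and Plac8 for Ltbr (0.988 and 0.982). These are the extremes of a search over 8 points that share libraries, depth and length slope, and several of the genes named, such as Hnrnpd, were at a similar level in Ctr and MRL/lpr kidneys.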

How the data were processed

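Whole-kidney RNA-seq of 11 mice (3 Ctr, 4 Lpr, 4 DNase, separate animals per the study) was analysed from the deposited gene table. Per the submitters' processing notes, the authors trimmed reads with fastp, counted reads per gene with HTSeq on mm10, and gave raw counts and FPKM per library. The aligner, the annotation version and the strand setting are not given in the sources used here, and neither is how reads with several matches were counted. The deposited counts were whole numbers, and the deposited FPKM values matched them with 1 length per gene. The number of per-sample columns left unused was 0.

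The counts were tested with edgeR 4.0.16 in R 4.3.3 (TMM, filterByExpr, quasi-likelihood F test) with the libraries of the 2 groups compared alone, on all genes, with Benjamini-Hochberg adjustment. The rule for a call, taken from the study, was an adjusted p under 0.05 together with a log2 fold change above 2 in size. SEs and 95% intervals are those implied by the F statistic. CPM are counts over TMM effective library sizes of all 11 libraries, and log2 CPM used a prior count of 2. Members relative to marker lists were compared with exact two-sided permutation tests over kidneys (scipy 1.17.1). Intervals of pooled counts and the precision set by 33469858 to 38460873 counts per library cover counting error only. Positions are GENCODE M21 on GRCm38, and copies of transcripts were sought with blastn 2.17.0+ and kept at 95% identity or more over 20% or more of the transcript.

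The 9 genes and the 17 gene lists were chosen with earlier results of these data known. Named are all 9 genes, for each list the 2 genes of smallest p in Lpr against Ctr and the 1 in DNase against Lpr, any gene of the chemokine axis and lymphotoxin lists, and the 2 genes most correlated with each of the 9. Other list genes named were chosen after their values were seen, and some list genes are not reported here. Alternatives were DESeq2 1.42.0, its size factors in edgeR, no count filter, all 11 libraries in 1 fit, a replicate block, removal of each library's length trend, limma 3.58.1 on log2(FPKM + 1) or log2(FPKM + 0.1) with a minimum mean FPKM of 0.5 and without that filter, no fold threshold, each kidney left out, and, chosen after seeing the data, an adipose score as a covariate. On simulated counts with 200 genes at a log2 fold change of 3, the test called 181 of them for Lpr against Ctr, 187 for DNase against Lpr and 196 for DNase against Ctr. It also called 2, 3 and 1 unchanged genes. Smaller changes were not simulated, such as the -0.87 to 0.91 estimated for the 9 genes in DNase against Lpr, so their recovery is not known.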

Additional observations from a re-analysis of the deposited data

Results flagged for a closer look

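Among the values of the 9 genes in the Lpr and DNase groups (18 groups of 4 kidneys), 1 kidney stood apart from the other 3 by Dixon's test at the 95% level, a test that picks out about 1 group in 20 by chance. It was Ltb in Lpr kidney 3, at 27.3 CPM, where the other Lpr kidneys had 10.4, 13.1 and 11.7 CPM (ratio of gap to range 0.841). The same library had the steep slope of level on transcript length, and the part of that slope in the value was not tested.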

How the results depend on the processing

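Of 456 values of the 27 member fold changes under the alternatives, 423 kept their direction and side of the threshold, 13 lost the call, 8 gained it and 12 reversed. Members called in Lpr against Ctr fell from 5 to 3 with limma on log2(FPKM + 1), on log2(FPKM + 0.1) and without the filter, and lay between 3 and 5 with 1 kidney left out (3 without Ctr kidney 2 or Ctr kidney 3). In DNase against Ctr they were 3 under the same 3 limma fits and 5 to 6 with 1 kidney left out. In DNase against Lpr they were 0 under every alternative run. All genes called in Lpr against Ctr numbered 213, 565 and 204 in those limma fits, 1639 with no fold threshold and 663 to 969 with 1 kidney left out. In DNase against Ctr the same settings gave 190, 549 and 190, 3493 and 869 to 1042. In DNase against Lpr DESeq2 called 5. The replicate numbers did not pair kidneys (correlation of same-numbered deviations -0.277 to 0.159). With the replicate block, Lta in Lpr against Ctr lost its call (2.42, adjusted p = 0.141, edgeR), and no other of the 9 genes did. Limma on log2(FPKM + 1) without the filter understated Cxcr5 (0.67 and 0.54 in Lpr and DNase against Ctr) and Lta (0.23 and 0.45). Reversals were of differences that no test called. In DNase against Lpr, Ccr7 was 0.018 on log2(FPKM + 0.1). With 1 kidney left out, Ltb was -0.14 to 0.48 (reversed without Lpr kidneys 1, 2 and 4 at -0.075, -0.0086 and -0.041, and DNase kidney 3 at -0.14), Ccl19 was -0.58 to 0.048 and Ccr7 -0.45 to 0.38 (both reversed without Lpr kidney 2), and Cxcl12 -0.011 to 0.26 (reversed without DNase kidney 2). In DNase against Ctr, Ccl21a was -0.046 to 0.27 (reversed without Ctr kidney 2 and without DNase kidney 1, -0.013). With the adipose score, chosen after seeing the data, Cxcl12 in Lpr and Ccl21a in DNase against Ctr were both -0.024, Ccl19 in DNase against Ctr lost its call at 1.91 and Ccr7 gained one at 2.37. Relative to markers, Ltb to T cells became 0.48 (Lpr against Ctr) and 0.73 (DNase against Ctr) on log2(FPKM + 1), and Cxcr5 became -0.27 to B cells and -0.12 to follicular helper T cells in DNase against Ctr. With 1 kidney left out, in DNase against Lpr, Ltb to T cells ranged from -0.082 to 0.56, Ccr7 to T cells from -0.070 to 0.24 and Cxcr5 to follicular helper T cells from -0.68 to 0.039. The causes of these shifts were not tested. Counts of 0 to 4 in Ctr kidneys limit Cxcr5 and Lta, and 3 or 4 kidneys a group limit all comparisons.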
